A study of Arabidopsis thaliana with 10 samples.

Results

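Transcript levels of 7 shade-induced transcription factor genes were followed in dark-grown Arabidopsis thaliana hypocotyls given or denied gibberellin and brassinosteroid. Of these, 5 encode class II homeodomain leucine zipper (HD-ZIP II) proteins: ATHB2 (AT4G16780), HAT1 (AT4G17460), HAT2 (AT5G47370), HAT3 (AT3G60390) and ATHB4 (AT2G44910). The other two, PIL1 (AT2G46970) and HFR1 (AT1G02340), encode basic helix-loop-helix (bHLH) proteins. The genes were taken by locus identifier from the 33518 genes of the deposited tables, and all 7 were measured in every group. RNA was sequenced from 5 groups of 2 samples, the second of each pair marked as a repeat. All groups, controls included, grew for 4.5 days in darkness on 1 µM PAC (paclobutrazol), which blocks gibberellin synthesis. The 4 wild-type Col-0 groups had no PPZ or 2 µM PPZ (propiconazole, which blocks brassinosteroid synthesis), each followed by mock solution or 10 µM GA3, an active gibberellin, for 12 hours. The fifth group was bzr1-1D in Col-0 on PAC and PPZ with mock. This dominant mutation stabilises BZR1, the transcription factor that acts at the end of the brassinosteroid pathway. No GA3-treated bzr1-1D group and no group without PAC was analysed here.

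HD-ZIP II proteins bind DNA through a homeodomain joined to a leucine zipper and act mainly as transcriptional repressors. Their genes are among the first induced by vegetational shade, when loss of phytochrome activity frees the PHYTOCHROME-INTERACTING FACTORS (PIFs), bHLH activators of stem elongation. PIL1 and HFR1 are induced alongside them, and their proteins pair with PIFs and hold them back, which makes them a brake on the same pathway. Gibberellin frees PIFs from DELLA repressors, and BZR1 and PIF4 bind many of the same promoters. In darkness PIFs are active in the absence of shade.

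PIFs are known to bind the G-box, CACGTG, and the related CACATG, BZR1 binds CGTGTG as well as CGTGCG and the G-box, and HD-ZIP proteins bind sites of the form CAATNATTG, of which class II prefers G or C in the centre. The first and last of these patterns read the same on the complementary strand, and the others were searched on both strands. CGTGTG and CGTGCG can overlap CACGTG. All were searched for in the 2000 bases before each annotated gene start of the RefSeq assembly TAIR10.1, where all 7 loci were found by identifier. The deposited tables name no genome build and hold no coordinates, so the positions below are those of TAIR10.1 alone. CACGTG was found at 5 of the 7 genes and in 24.0% of 26642 promoters of that length. Within 1000 bases it was found at HFR1 alone among the 7, against 14.9% of promoters, and the longer window was taken after this was seen. CAATNATTG was found at ATHB2, HAT1 and HAT2, against 6.36% of promoters, and the one at HAT1 has the centre that class II prefers. CGTGCG was found at 5 of the 7 (HAT1, HAT2, HAT3, ATHB4 and PIL1), against 9.53% of promoters, and CGTGTG at 4 (HAT1, HAT2, ATHB4 and PIL1), against 30.4%. CACATG was found at 4 (HAT1, HAT2, HAT3 and HFR1), against 61.1%. Representative sites are shown 5′ to 3′ on the strand of the gene, with the motif in capitals, because the pair at PIL1 and the G-boxes of HFR1 belong to genes that respond differently below. A match describes the sequence and is no evidence of binding. The distances are from the annotated gene start to the motif's 5′ base.
PIL1, chr2:19299063-19299092, minus strand, 1222 bases upstream: tcacgcggcattCACGTGaagtgcacgtga
PIL1, chr2:19299052-19299081, minus strand, 1211 bases upstream: tcacgtgaagtgCACGTGaacttggccaaa
PIL1, chr2:19298934-19298963, minus strand, 1093 bases upstream: gttctttccgctCACGTGggccttttgtgc
HFR1, chr1:469282-469311, minus strand, 1419 bases upstream: tcacgagggcatCACGTGaacacgcctttt
HFR1, chr1:468863-468892, minus strand, 1000 bases upstream: gagcccacaaccCACGTGggattttggata
HAT1, chr4:9738204-9738233, plus strand, 1302 bases upstream: gtcccttgttgtCACGTGacatgacccacc
HAT1, chr4:9738770-9738798, plus strand, 738 bases upstream: gttcttgcacCAATGATTGgaaaaatttg
ATHB2, chr4:9448627-9448655, plus strand, 477 bases upstream: gatctaattcCAATAATTGtcaaagagga
HAT2, chr5:19219330-19219358, minus strand, 1341 bases upstream: tttttgctctCAATTATTGtcgctcattg
The printed stretches lie outside other annotated genes, although the 2000 bases searched reach into 2 others at HAT2 and 1 each at PIL1 and HFR1. ATHB4 has 2 further CACGTG sites and HAT2 has 1, the latter inside the neighbouring annotated gene AT5G06985.

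The deposited tables give the mean of each group, from which the whole reads of both libraries were recovered. The library totals ran from 7874340 to 16047844 reads in genes. The library of a pair with more reads is named the deeper one and the other the shallower one, and which of them is the labelled repeat is unknown. The wild-type PAC pair was the least alike, with a standard deviation of the log2 difference of 0.244 over genes of 1000 or more normalized reads. In the other pairs this was 0.0891 to 0.163. The labels do not say whether repeats came from separate cultures, so every p below reflects only how far these libraries differed, possibly for technical reasons. The labelled tissue is hypocotyl. Of 8 root markers, 7 could be summed in each library, and their sum was 48.6 to 70.0 normalized reads without PPZ. It was 227 to 284 in wild type on PPZ and 81.8 to 94.6 in bzr1-1D. The eighth, PYK10, was high throughout, with deposited group means of 39631 to 83463 normalized reads, and did not follow that sum. With mock, wild type had 71802 on PAC and 83463 on PAC and PPZ. The level of PYK10 is not read here as a measure of root tissue. Of 3 shoot apex markers, WUS was at 0 in 6 of the 10 libraries CLV3 reached 21.8 normalized reads at most, and STM was present at 103 to 179. Their sum was 139 to 186 without PPZ and 107 to 140 in the 6 libraries on PPZ. The 4 leaf and cotyledon polarity markers had the largest sums, 1562 to 1907 normalized reads without PPZ and 1295 to 1496 on PPZ, with PYK10 not summed. In bulk tissue, fewer cells of a type and less RNA per cell cannot be told apart.

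Per length of transcript, the 7 genes fell into an abundant and a scarce set. On PAC with mock, HFR1 had 1120 and PIL1 1023 normalized reads per kb of annotated exon, followed by ATHB2 with 824 and HAT2 with 555. HAT1 had 196, HAT3 149 and ATHB4 122 on the same scale. ATHB2 and HFR1 were highest per kb with GA3 on PAC, at 1415 and 1547, whereas in wild type on PAC and PPZ with mock the highest was PIL1 at 786. The order of the genes therefore changed with treatment.

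**Figure D1:**
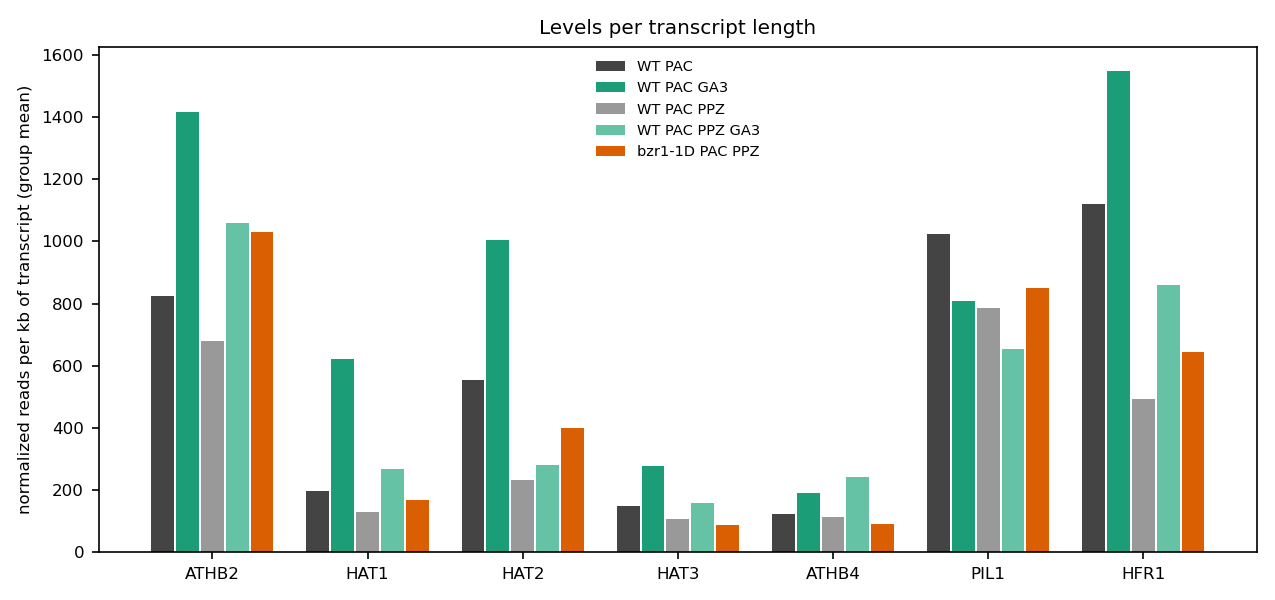
Group mean level of each gene in normalized reads per kb of annotated exon (y axis), one bar per group in the 5 groups, without error bars. HFR1, PIL1 and ATHB2 stand above the others in most groups, and PIL1 has the smallest ratio between its highest and lowest group, 1023 and 653.

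ATHB2, the classic marker of the shade response, had 1030.5 and 1166 normalized reads in the deeper and shallower wild-type libraries on PAC, and 1973 and 1799 after GA3. On PAC and PPZ it had 943 and 872 with mock and 1405 and 1416 with GA3. In bzr1-1D it had 1281 and 1465. ATHB2 was thus highest with GA3 on PAC and lowest on PAC and PPZ, and bzr1-1D overlapped GA3-treated wild type on PAC and PPZ.

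HAT1, which in Arabidopsis is placed in brassinosteroid signalling, had 225 and 342 normalized reads on PAC, a wide pair, and 968 and 829 after GA3. On PAC and PPZ it had 179.9 and 199 with mock and 396 and 374 with GA3. In bzr1-1D it had 221 and 268, which overlapped the untreated PAC pair. HAT1 with GA3 on PAC stood above every other library.

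HAT2, first described as an early auxin-induced gene, had 759 and 821 normalized reads on PAC and 1504 and 1354 after GA3. On PAC and PPZ it had 325 and 338 with mock and 395 and 401 with GA3. In bzr1-1D it had 531 and 605. No 2 neighbouring groups of HAT2 overlapped, and all 6 libraries on PPZ lay below all 4 libraries without it. The share of all genes whose groups lie apart in this way was not computed, here or for the genes below.

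HAT3 and ATHB4 act together in leaf polarity and are the scarcest of the set. HAT3 had 247 and 186 normalized reads on PAC, 403 and 405 after GA3, 146 and 163 on PAC and PPZ, 228 and 229 there after GA3, and 138 and 114 in bzr1-1D. ATHB4 had 161 and 180.4 on PAC, 281 and 249 after GA3, 166 and 149 on PAC and PPZ, 332 and 348 there after GA3, and 123 and 130.1 in bzr1-1D. Both genes were lowest in bzr1-1D, in which neither overlapped any other group. Neither passed as lower there than in wild type on PAC and PPZ with mock (limma-voom adjusted p = 0.0916 for HAT3 and 0.0556 for ATHB4). They differed in where they peaked, HAT3 with GA3 on PAC and ATHB4 with GA3 on PAC and PPZ.

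PIL1 had 1439 and 1868 normalized reads on PAC and 1225 and 1391 after GA3. On PAC and PPZ it had 1278 and 1263 with mock and 1038 and 1073 with GA3, and in bzr1-1D 1408 and 1339. It was the only gene of the 7 whose highest group was untreated wild type on PAC, whose libraries were again far apart. HFR1 had 1393 and 1889 on PAC and 2407 and 2129.9 after GA3. On PAC and PPZ it had 729.8 and 719.8 with mock and 1220.4 and 1298 with GA3, and in bzr1-1D 892 and 1001. No 2 neighbouring groups of HFR1 overlapped, although the untreated PAC pair spread widely.

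**Figure D2:**
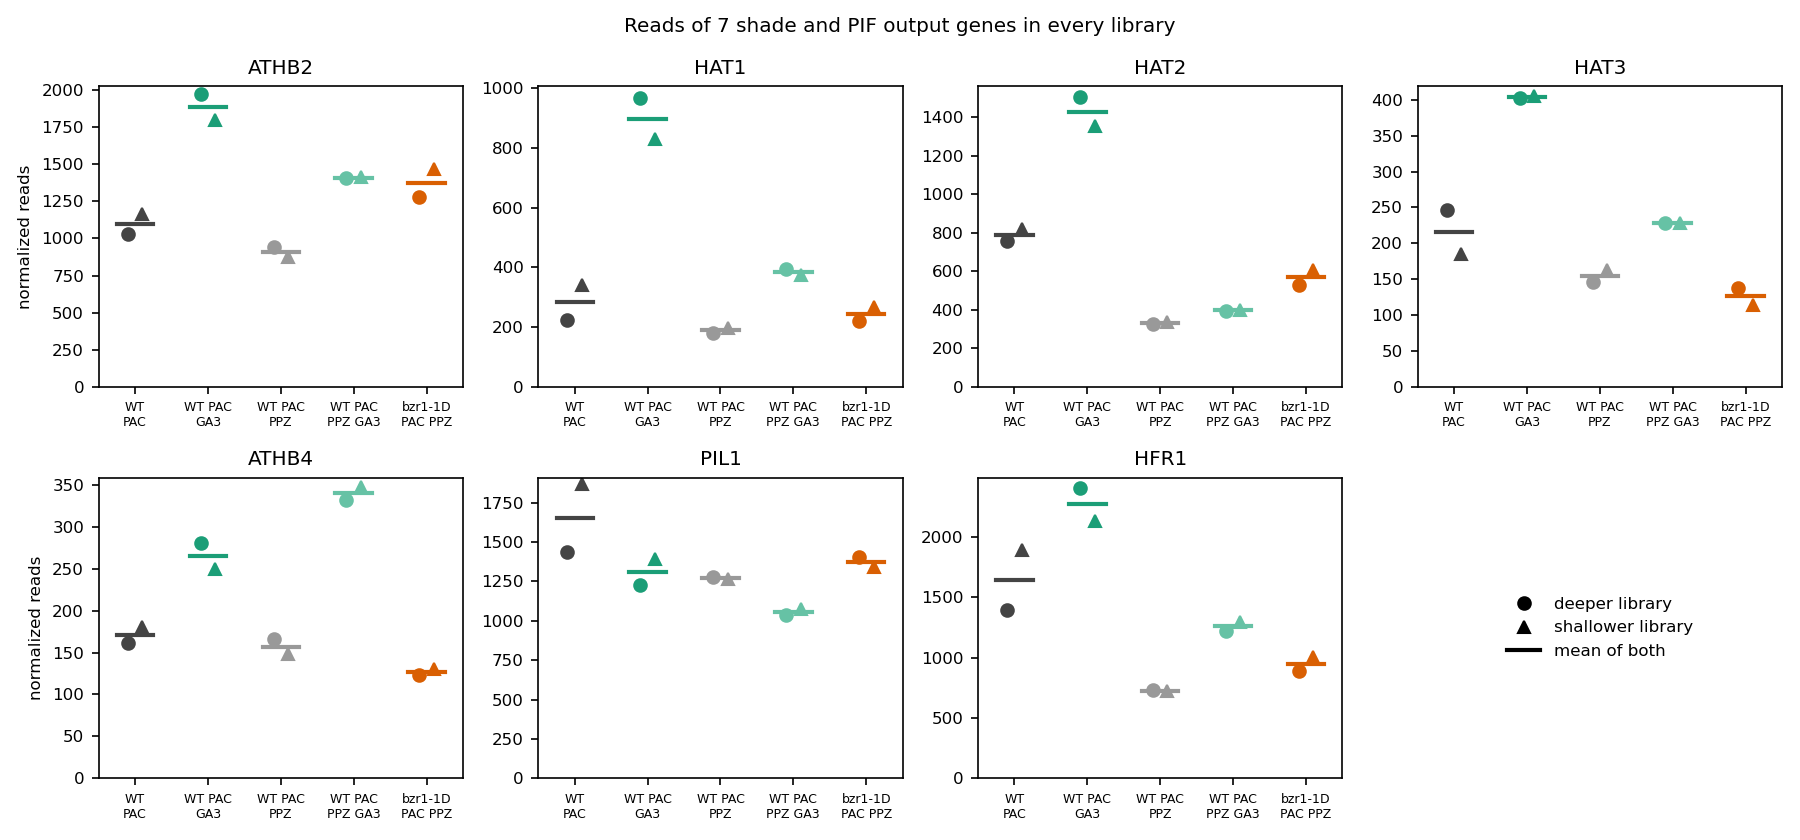
Normalized reads, scaled together over all 10 libraries (y axis, from 0), in the deeper (circle) and shallower (triangle) library of each group, with a line at their mean, for the 7 genes. The 5 HD-ZIP II genes and HFR1 sit higher with GA3 than with mock on both media, and PIL1 sits lower in the means.

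With GA3 on PAC, which supplies gibberellin without the block of brassinosteroid synthesis by PPZ, the 5 HD-ZIP II genes were all higher. In the authors' deposited table HAT1 rose 3.16-fold (DESeq adjusted p = 3.07e-18), HAT3 1.86-fold (9.09e-07), HAT2 1.80-fold (1.3e-12), ATHB2 1.71-fold (1.55e-10) and ATHB4 1.55-fold (0.000836). The bHLH genes did not pass there, with a fold of 1.38 for HFR1 (adjusted p = 0.0708) and of 0.788 for PIL1 (0.301) in the authors' deposited table. That is 5 of 7 genes called higher and 0 lower (0 also at an unadjusted p under 0.05), while 12.9% of the 24020 genes tested were called higher and 14.3% lower.

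limma-voom on the recovered reads gave a log2 change of 1.71 ± 0.17 (SE, 2 libraries against 2) for HAT1 and of 0.62 to 0.83 for the other 4 HD-ZIP II genes. The median log2 change of the 7 genes was 0.74, against 0.01 over all 18948 genes fitted. HFR1 had 0.43 ± 0.15 and just passed (adjusted p = 0.0489), which made 6 of 7 higher by limma-voom, against 13.4% of genes fitted, and 0 lower, against 17.9%, where PIL1 passed at an unadjusted p under 0.05. Over the other settings and left-out libraries the adjusted p of HFR1 ran from 2.65e-06 to 0.349, and 3 of the 4 fits without a library lost the call. PIL1 had -0.37 ± 0.14 (adjusted p = 0.0618, 95% interval -0.68 to -0.07), and without the deeper wild-type PAC library it passed as lower, at -0.55 (0.000129, the lowest of a range up to 0.381). The ATHB4 call ended without the deeper GA3 library (adjusted p = 0.122, over a range of settings from 0.000603 to 0.122).

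GA3 on PAC and PPZ addressed the same question with brassinosteroid synthesis blocked as well. In the authors' deposited table ATHB4 rose 2.17-fold (DESeq adjusted p = 7.8e-10), HAT1 2.04-fold (2.01e-06), HFR1 1.74-fold (0.00801), ATHB2 1.56-fold (1.33e-06) and HAT3 1.48-fold (0.00369). HAT2 did not pass, with a fold of 1.20 (adjusted p = 0.169), nor did PIL1, with 0.834 (0.478), in the authors' deposited table. These 5 of 7 genes called higher stand beside 5.97% of the 24513 genes tested, and 7.37% were called lower. The set of called genes was therefore not that of PAC alone, with HFR1 in and HAT2 out.

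The recovered libraries of this comparison were close together, and limma-voom called all 7 genes. ATHB4 had a log2 change of 1.10 ± 0.10, HAT1 of 1.02 ± 0.09, HFR1 of 0.79 ± 0.06, ATHB2 of 0.63 ± 0.06 and HAT3 of 0.56 ± 0.10. HAT2 had 0.25 ± 0.08 (adjusted p = 0.0211), a call that ended in each of the 4 fits without a library (0.0591 to 0.13). PIL1 was lower by limma-voom, at -0.28 ± 0.05 (adjusted p = 0.0013), and every fit without a library kept this call. It ended in the fit on all 5 groups (adjusted p = 0.0914, the highest of a range from 0.00085). These 6 higher and 1 lower stand beside 16.3% and 18.6% of the 19812 genes fitted.

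**Figure D3:**
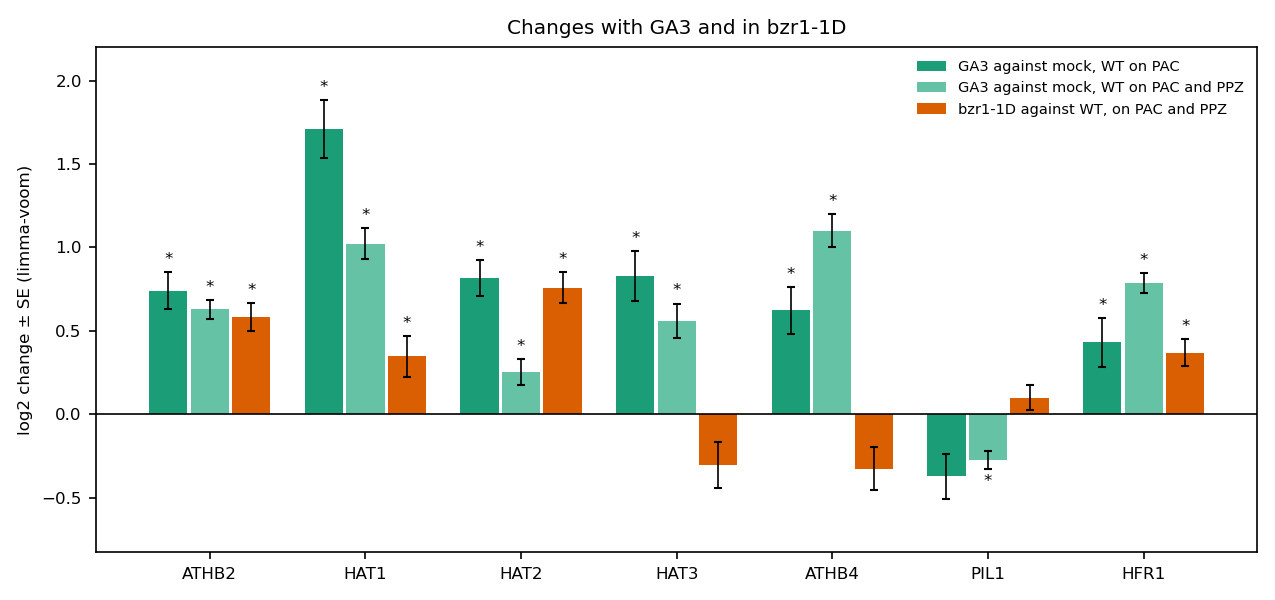
Log2 change from limma-voom (bars, y axis) with its standard error (whiskers) for the 7 genes in 3 comparisons of 2 libraries against 2. A star marks an adjusted p under 0.05. HAT1 has the tallest bar with GA3 on PAC (1.71), ATHB4 with GA3 on PAC and PPZ (1.10) and HAT2 in bzr1-1D (0.76).

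The difference between both GA3 effects was tested in 1 model of the 4 wild-type groups. HAT2 responded less with PPZ than without it, by -0.60 ± 0.12 on the log2 scale (limma-voom adjusted p = 0.027), as 1 of 7 genes beside 1.62% of 19463 genes called lower. None was called as responding more, beside 1.71% called higher, although ATHB4 had an unadjusted p under 0.05. The call ended in 5 of the 8 fits without a library, where the adjusted p reached 0.154. HAT1 had -0.74 ± 0.22 (adjusted p = 0.0992, 95% interval -1.22 to -0.26) and ATHB4 0.44 ± 0.17 (0.185, 0.08 to 0.80). HAT1 passed without the shallower wild-type PAC library, at -0.98 (0.00152, of a range up to 0.343). The intervals of the other four, ATHB2, HAT3, PIL1 and HFR1, reached from -0.68 to 0.69 and included 0. The entry of HFR1 into the calls on PPZ is thus not shown to be a difference in response, since its own difference was 0.31 ± 0.17 (adjusted p = 0.387, and 0.0152 to 0.717 in the fits without a library). It passed only without the deeper wild-type PAC library.

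PPZ itself, in wild type with mock, went with lower HAT2 and HFR1. HAT2 fell from 790 ± 43.7 to 332 ± 9.26 normalized reads (SD, n = 2), a log2 change of -1.24 ± 0.10 (limma-voom adjusted p = 6.34e-05). HFR1 fell from 1641 ± 351 to 725 ± 7.05, a log2 change of -1.17 ± 0.14 (0.000472). HAT3 also passed, at -0.52 ± 0.16 (0.0378), but lost the call in 3 of the 4 fits without a library, where the adjusted p reached 0.276. The 3 of 7 genes called lower stand beside 12.3% of the 19416 genes fitted, and 0 were higher (0 also at an unadjusted p under 0.05), beside 11.8%. HAT1 (-0.48 ± 0.19, adjusted p = 0.0949), PIL1 (-0.37 ± 0.13, 0.0646) and ATHB2 (-0.27 ± 0.10, 0.0889) had negative values that did not pass. All 3 passed without the deeper wild-type PAC library, at -0.87, -0.57 and -0.38. ATHB4 had -0.09 ± 0.14 (0.688), with a 95% interval of -0.41 to 0.23. The root markers moved with PPZ in these libraries, the sum of 7 going from 48.6 to 59.9 up into 227 to 254 normalized reads. Their calls are not counted, because COBL9, EXPA7, PLT1 and PLT2 passed the filter on low reads only through their PPZ libraries. WOX5 was low in both groups, with means of 5.28 and 6.81, and was not fitted. The part of the root markers in the lower levels was not tested. The shoot apex markers summed to 139 to 186 without PPZ and 107 to 108 with it. The leaf and cotyledon polarity markers summed to 1620 to 1907 without PPZ and 1420 to 1496 with it. The part of neither was tested.

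Under GA3, PPZ went with lower levels of 6 of the 7 genes, beside 27.4% of 19450 genes fitted. HAT2 differed most, at -1.87 ± 0.08 (limma-voom adjusted p = 7.2e-09), from 1429 ± 106 to 398 ± 4.42 normalized reads. HAT1 had -1.25 ± 0.09 (5.15e-07), HFR1 -0.88 ± 0.07 (1.58e-06), HAT3 -0.85 ± 0.09 (1e-05), ATHB2 -0.45 ± 0.07 (0.000152) and PIL1 -0.33 ± 0.07 (0.00258). ATHB4 went the other way, at 0.32 ± 0.10 (0.0172), beside 24.5% of genes called higher, and lost this call in 2 of the 4 fits without a library, with an adjusted p of up to 0.0975. The wild-type GA3 groups also served the GA3 comparisons, so these values are not separate evidence. Root marker sums were 59.6 to 70.0 without PPZ and 230 to 284 with it under GA3, and their part was not tested.

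**Figure D4:**
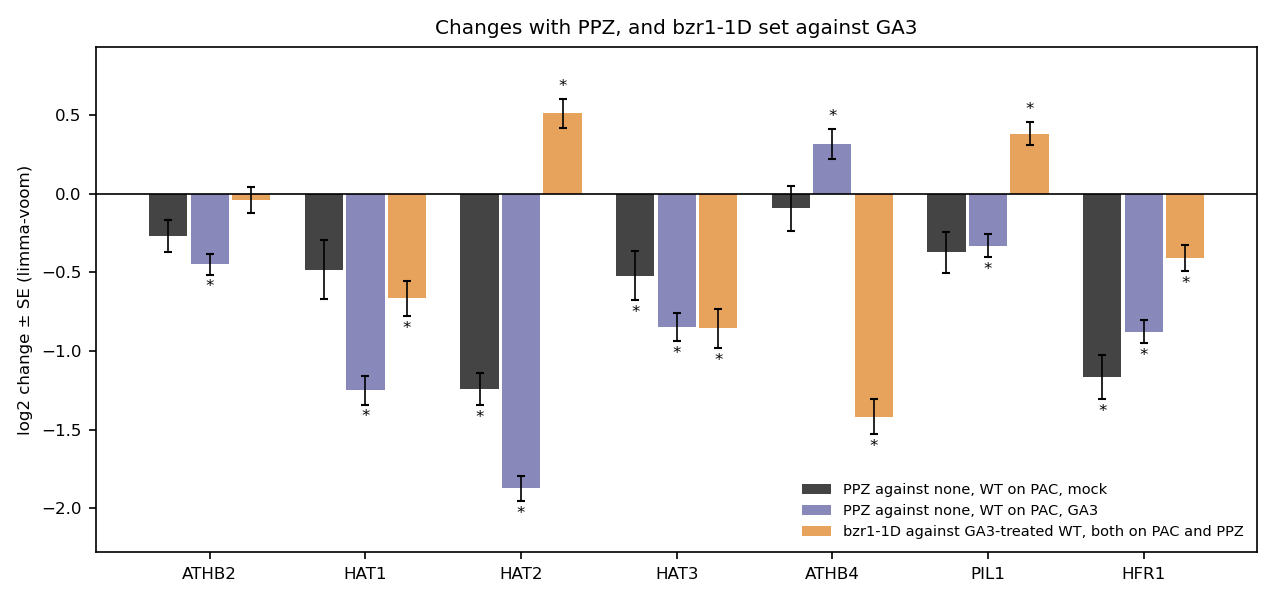
Log2 change from limma-voom (bars, y axis) with its standard error (whiskers) for the 7 genes, for PPZ against none with mock and with GA3, and for bzr1-1D against GA3-treated wild type on PAC and PPZ. A star marks an adjusted p under 0.05. HAT2 has the lowest bar for PPZ under GA3 (-1.87), and in bzr1-1D against GA3 ATHB4 has the lowest (-1.42) and HAT2 the highest (0.51).

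bzr1-1D was compared with wild type on PAC and PPZ, both with mock, which sets stabilised BZR1 against wild type with both inhibitors present. ATHB2 and HAT2 were higher in the mutant. In the authors' deposited table HAT2 rose 1.71-fold (DESeq adjusted p = 4.33e-09) and ATHB2 1.51-fold (2.71e-06). The deposited folds of the other 5 were 1.30 for HFR1 (adjusted p = 0.241), 1.29 for HAT1 (0.159), 1.08 for PIL1 (0.794), 0.814 for HAT3 (0.207) and 0.803 for ATHB4 (0.185) in the authors' deposited table. That is 2 of 7 genes higher and 0 lower (0 also at an unadjusted p under 0.05), beside 14.5% and 15.0% of the 24621 genes tested. HAT3 and ATHB4, the polarity pair, were thus the only 2 of the 7 with folds below 1.

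limma-voom called 4 genes higher and 0 lower, beside 23.2% and 23.4% of the 19847 genes fitted. HAT2 had a log2 change of 0.76 ± 0.09, ATHB2 of 0.58 ± 0.09, HFR1 of 0.37 ± 0.08 (adjusted p = 0.00274) and HAT1 of 0.35 ± 0.12 (0.0351). The HAT1 call ended in 3 of the 4 fits without a library, where the adjusted p reached 0.24. ATHB4 had -0.33 ± 0.13 (0.0556) and HAT3 -0.31 ± 0.14 (0.0916), both with an unadjusted p under 0.05. HAT3 passed as lower without the deeper mutant library, at -0.44 (0.0194, of a range up to 0.454). PIL1 had 0.10 ± 0.07 (0.289), with a 95% interval of -0.06 to 0.26. Of the 8 root markers, 4 were lower in bzr1-1D and 0 higher by the deposited test, beside 15.0% and 14.5% of the 24621 genes tested. PYK10 had a fold of 0.475 (DESeq adjusted p = 9.56e-30) in the authors' deposited table. WOX5 went the other way there, with a fold of 1.54 from 6.90 reads, and was not called. The sum of 7 root markers was 81.8 to 94.6 normalized reads against 227 to 254. The part of the root markers in these results was not tested. This comparison and that of GA3 on PAC and PPZ share the wild-type mock libraries.

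Set directly against GA3-treated wild type on PAC and PPZ, bzr1-1D had another profile across the 7 genes. This contrast was added after the data were seen. ATHB4 was lowest relative to GA3, at -1.42 ± 0.11 on the log2 scale (limma-voom adjusted p = 1.27e-05), from 340 ± 11.0 with GA3 to 126 ± 5.25 normalized reads in the mutant. HAT3 (-0.86 ± 0.13, 0.000568), HAT1 (-0.67 ± 0.11, 0.00121) and HFR1 (-0.41 ± 0.08, 0.00348) were also lower. HAT2 (0.51 ± 0.09, 0.00191) and PIL1 (0.38 ± 0.07, 0.00246) were higher. These 4 lower and 2 higher of 7 stand beside 18.8% and 19.1% of the 19782 genes fitted. All 6 calls held in each of the 4 fits without a library. ATHB2 had -0.04 ± 0.08 (0.742), with a 95% interval of -0.22 to 0.15. The sum of 7 root markers was 81.8 to 94.6 normalized reads in bzr1-1D against 230 to 284 with GA3. WOX5, too low to be fitted, went the other way, with means of 10.5 in bzr1-1D and 5.83 with GA3. The part of the root markers was not tested.

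Against wild type on PAC without PPZ, which differs in both genotype and PPZ, bzr1-1D on PAC and PPZ had lower HAT3 (-0.82 ± 0.18, limma-voom adjusted p = 0.00767), HFR1 (-0.79 ± 0.15, 0.00284) and HAT2 (-0.48 ± 0.12, 0.0113). These 3 of 7 stand beside 15.7% of the 19324 genes fitted, and 0 were higher, beside 15.3%, although ATHB2 had an unadjusted p under 0.05. The HAT3 and HAT2 calls each ended in 1 of the 4 fits without a library, at adjusted p values up to 0.0558 and 0.133. ATHB2 had 0.32 ± 0.12 (0.0726, 95% interval 0.05 to 0.59). Without the shallower wild-type PAC library it passed as higher, at 0.39, and without the deeper one HAT1 and PIL1 passed as lower, at -0.50 and -0.45. HAT2 in the mutant therefore lay above wild type on PPZ and below wild type without it.

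Other genes of the pathway were taken from lists and read from the authors' deposited tables. Of the 5 other HD-ZIP II genes, 2 were higher with GA3 on PAC (HAT22 1.22-fold, ATHB17 3.65-fold from 3.57 reads), 0 passed on PAC and PPZ (0 also unadjusted), and 2 were higher in bzr1-1D (HAT22 1.58-fold, HAT14 1.64-fold). None was lower in the authors' deposited tables, also at an unadjusted p under 0.05. For GA3 on PAC, GA3 on PAC and PPZ, and bzr1-1D, 12.9%, 5.97% and 14.5% of all genes tested were called higher there. In that order 14.3%, 7.37% and 15.0% were called lower. limma-voom called 0 of the 4 fitted with GA3 on PAC and 2 of 5 higher in bzr1-1D, beside 13.4% and 23.2% of genes fitted called higher. Of the 5 HD-ZIP III genes, CNA was lower with GA3 on PAC (fold 0.812) and ATHB8 higher in bzr1-1D (1.26) in the authors' deposited tables. No other call was made there. limma-voom also called CNA (-0.27, adjusted p = 0.00207) and PHB (-0.17, 0.0429) lower with GA3 on PAC and PPZ, beside 18.6% of genes fitted. In bzr1-1D it called PHV lower (-0.26, limma-voom adjusted p = 0.0196), beside 23.4%.

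Of 7 PIF genes, 3 were higher and 2 lower with GA3 on PAC in the authors' deposited table, beside 12.9% and 14.3% of all genes tested. PIF4, a main activator of elongation, rose 1.99-fold and PIF5 1.50-fold, PIF8 rose 2.19-fold, while PIF3 (0.765) and PIF6 (0.356) fell. With GA3 on PAC and PPZ only PIF4 (1.40-fold) was higher and PIF6 (0.488) lower in the authors' deposited table, beside 5.97% and 7.37% of all genes tested. limma-voom called 2 higher and 2 lower of the 6 fitted there, beside 16.3% and 18.6% of genes fitted. It added PIF5 as higher (0.34, limma-voom adjusted p = 0.00508) and PIF3 as lower (-0.16, 0.0234). In bzr1-1D PIF4 (2.16-fold), PIF5 (1.50-fold), PIF3 (1.30-fold) and PIF7 (3.79-fold from 2.18 reads) were higher and PIF8 (0.245) lower in the authors' deposited table. There 14.5% of all genes tested were called higher and 15.0% lower. PIF4 was therefore higher in all 3 deposited comparisons, like ATHB2.

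The COP1 and SPA proteins form the ubiquitin ligase that removes HFR1 in darkness. Of its 5 genes, SPA3 was lower in all 3 of the authors' deposited tables, with folds of 0.630, 0.738 and 0.540 for GA3 on PAC, GA3 on PAC and PPZ, and bzr1-1D. In that order 14.3%, 7.37% and 15.0% of all genes tested were called lower. SPA4 was lower with GA3 on PAC (0.726) and in bzr1-1D (0.772), and SPA1 in bzr1-1D (0.455), in the authors' deposited tables. limma-voom also called SPA4 lower with GA3 on PAC and PPZ (-0.34, adjusted p = 0.0133), beside 18.6% of genes fitted. COP1 and SPA2 were not called in any of the 3 deposited tables.

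Of 10 other shade and PIF output genes, 6 were higher with GA3 on PAC, 5 with GA3 on PAC and PPZ and 4 in bzr1-1D, and 0 were lower, in the authors' deposited tables, where 12.9%, 5.97% and 14.5% of all genes tested were called higher. In the same order 14.3%, 7.37% and 15.0% were called lower. limma-voom called 6 of 8 fitted, 6 of 9 and 5 of 8 higher in that order, against 13.4%, 16.3% and 23.2% of genes fitted. It also called PAR1, another small inhibitor of bHLH activity, lower with GA3 on PAC and PPZ (-0.31 ± 0.07, adjusted p = 0.00446), beside 18.6% of genes fitted. In bzr1-1D it called PAR1 (-0.26 ± 0.09, limma-voom adjusted p = 0.04) and CKX5 (-0.25 ± 0.08, 0.0261) lower, beside 23.4%. In the authors' deposited tables these 3 had unadjusted p values of 0.00818, 0.0283 and 0.0451. The auxin-response repressor IAA19 rose 5.40-fold, 4.05-fold and 6.79-fold in that order in the authors' deposited tables, larger folds than those of the 7 genes. PAR2, a small inhibitor of bHLH activity, rose 2.43-fold, 2.41-fold and 3.86-fold, and IAA29 rose 2.39-fold, 2.08-fold and 1.63-fold in the authors' deposited tables. CKX5, a cytokinin-degrading oxidase, rose with GA3 on both media (1.83-fold and 1.73-fold), FHL in all 3 (1.78-fold, 1.83-fold and 1.34-fold) and the auxin synthesis gene YUC8 with GA3 on PAC (1.89-fold), in the authors' deposited tables. With PPZ and mock, 8 of these 10 genes were fitted and 7 were lower by limma-voom, beside 12.3% of the 19416 genes fitted. Among them were IAA19 at -2.75 ± 0.26, PAR2 at -1.81 ± 0.15 and IAA29 at -1.24 ± 0.17. PIF4 was lower as well, at -1.30 ± 0.13 (limma-voom adjusted p = 0.000156).

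The pattern of ATHB2, PIL1 and HFR1 over the 10 libraries was set against that of 16395 genes that averaged 50 or more normalized reads, on a log2 scale. The most alike to ATHB2 were VLN3, an actin-bundling villin (Pearson r = 0.994), CAP1, an actin regulator (0.989), and TUA4, an alpha-tubulin with a close copy that can share its reads (0.986). Those most like HFR1 were AT1G67050 (0.998), AT1G15350 (0.997) and the Aux/IAA gene IAA2 (0.996). PIL1 had fewer close matches, led by bHLH104 (0.969), AT1G09470 (0.960) and AT5G20110 (0.952). PIL1 also had the smallest ratio between its highest and lowest group, 1023 and 653 normalized reads per kb, and a wide untreated PAC pair. The part of this in its fewer matches was not tested. At r over 0.9 there were 512 genes for ATHB2, 427 for HFR1 and 23 for PIL1. These values describe 10 libraries that share their treatments, and the leading names were picked from all genes compared.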

How the data were processed

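RNA-seq of dark-grown hypocotyls was available as 3 deposited tables, 1 per comparison. The authors ran TopHat and DESeq, per the submitters' processing notes. Tool versions, build, annotation and read counting: not given in the sources used here. Per the file headers, each group column is a mean of reads divided by DESeq size factors, a normalized read signal made by the authors from both libraries. The fold columns deposited by the authors are ratios of these means, and the p-value columns are those of the authors' DESeq test. No column gives single libraries. Rows naming no gene (5 per table) were left out, and among them multiply aligned reads were 8.61 to 10.7% of the group totals.

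In a low group mean each of the 2 libraries contributes whole reads times its own step, which gave the whole reads of both libraries for 99.6 to 100.0% of genes above 0. Genes left unresolved had means of at least 10046. The recovery and the fits were also run on simulated reads, with results not given here. The spread of the reads simulated for the fits was set alike in all groups, so the wide wild-type PAC pair was not covered. The recovered reads were scaled together by median-ratio size factors. limma-voom (limma 3.58.1, R 4.3.3) was fitted on the groups compared, over genes averaging 10 or more normalized reads, with Benjamini-Hochberg adjustment over all of them and calls under 0.05. Main calls are those of the authors' DESeq adjusted p under 0.05 where a table exists. A fold below 1 means lower.

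Alternatives were TMM factors, no filter on low reads, a fit on all 5 groups, limma-trend on log2(normalized reads + 1), a stricter or fold limit, and leaving out each library. Gene symbols, exon lengths and sequences came from RefSeq TAIR10.1 by locus identifier, which matched 32709 of 33518 genes. From the lists, genes called in a deposited table were named, at most 6 per list and comparison. For ATHB2, PIL1 and HFR1 the 3 genes of highest r were named. The genes and lists were chosen with earlier results of these data known. Read totals give counting error only, which is smaller than the spread between libraries here: chi-square over degrees of freedom was 2.26 to 9.79 in the 5 pairs.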

Additional observations from a re-analysis of the deposited data

Results flagged for a closer look

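The GA3 effect on HAT2 differed between media in a test of the difference itself. With PPZ minus without PPZ it was -0.60 on the log2 scale (limma-voom adjusted p = 0.027), from a mean of 790 to 1429 normalized reads on PAC and from 332 to 398 on PAC and PPZ. Leaving out 1 library gave -0.68 to -0.52 and an adjusted p of 0.00214 to 0.154, with the call lost in 5 of 8 fits. With 2 libraries per group, single groups were not screened for outlying libraries.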

How the results depend on the processing

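Of 476 refitted log2 changes of the 7 genes, 427 kept direction and side of the threshold, 29 lost the call, 16 gained one and 4 reversed. The reversed values were all from leaving out a library and of values that had not passed. In the difference of GA3 effects PIL1 ran from -0.14 to 0.25, negative without the shallower wild-type PAC library (-0.14) or the deeper GA3 one (-0.03). For the mutant on PPZ against untreated wild type on PAC, HAT1 ran from -0.50 to 0.089, positive without the shallower PAC library. For the mutant against GA3, ATHB2 ran from -0.13 to 0.062, positive without the deeper mutant library. Requiring a deposited fold of at least 2 left 1 gene with GA3 on PAC, 2 on PAC and PPZ and 0 in bzr1-1D, where fewer changes qualify by construction. limma-voom called 4 genes in bzr1-1D against 2 by DESeq. The fit on all 5 groups called 5 genes for PPZ with mock and 5 for the mutant against untreated wild type on PAC, against 3 each. It called 7 genes rather than 6 with GA3 on PAC, where PIL1 passed as lower (adjusted p = 0.0291), 5 rather than 7 with GA3 on PAC and PPZ, where the HAT2 (0.0769) and PIL1 (0.0914) calls ended, and 3 rather than 4 in bzr1-1D, where the HAT1 call ended (0.107). The cause was not tested. Leaving out each library gave 4 to 6 called genes for GA3 on PAC, 6 to 6 for GA3 on PAC and PPZ, 3 to 5 for bzr1-1D, 2 to 5 for PPZ with mock, 6 to 7 for PPZ with GA3, 0 to 2 for the difference of GA3 effects, 2 to 5 for the mutant against untreated wild type on PAC, and 6 to 6 for bzr1-1D against GA3. In the fits that leave a group 1 library, it is assumed to vary like the others. TMM factors ended the HFR1 call with GA3 on PAC (adjusted p = 0.0571) and made PIL1 pass as lower there (0.0478). The deposited DESeq calls could not be refitted without a library.

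No paired analysis was possible because the deposited columns are group means that carry no replicate numbers, and the recovered libraries are tied to neither sample of a group. With 2 libraries per group, the wide wild-type PAC pair limits HAT1, HAT3, PIL1 and HFR1 most.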

Other observations

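Among leaf and cotyledon polarity genes, KAN1, a lower-side regulator, was higher in all 3 of the authors' deposited tables, 1.42-fold with GA3 on PAC (DESeq adjusted p = 0.0015), 1.34-fold with GA3 on PAC and PPZ (0.0216) and 1.53-fold in bzr1-1D (7.92e-05). FIL, a YABBY gene of the lower side, was lower in all 3, with folds of 0.630, 0.640 and 0.785 in the authors' deposited tables. In that order 12.9%, 5.97% and 14.5% of all genes tested were called higher there, and 14.3%, 7.37% and 15.0% lower. AS2 was lower with GA3 on PAC (fold 0.352) from 32.5 reads in the authors' deposited table. limma-voom also called AS2 lower in bzr1-1D, against wild type with both inhibitors (-0.87, adjusted p = 0.0344) and against untreated wild type on PAC (-0.97, 0.0449). For PPZ under GA3 it called AS2 higher (1.07, limma-voom adjusted p = 0.0288). YAB3 was not called in the authors' deposited tables, but limma-voom called it lower in bzr1-1D relative to wild type with both inhibitors (-0.24, adjusted p = 0.0403), for PPZ under GA3 (-0.38, 0.00154) and in bzr1-1D relative to untreated wild type on PAC (-0.46, 0.0365). In that order 23.4%, 27.4% and 15.7% of genes fitted were called lower, and 24.5% were called higher for PPZ under GA3. FIL was also lower for PPZ under GA3 (-0.29, limma-voom adjusted p = 0.0213) and in bzr1-1D relative to untreated wild type on PAC (-0.64, 0.00461). KAN1 was lower for PPZ under GA3 (-0.48, limma-voom adjusted p = 0.000531).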
